A study of Homo sapiens with 9 samples.

Results

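The 34 genes described here encode aminoacyl-tRNA synthetases. They were taken by name, 18 that serve the cytosol and 16 mitochondrial ones whose symbols end in 2, out of 22384 genes with at least 1 read pair in the series. For each gene, the read pairs of which both ends lay on its strand within 1 kb of its Gencode v44 body (hg38) were added up, which gave 62678 pairs over 4 libraries, 54392 for the cytosolic and 8286 for the mitochondrial group.

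The libraries come from K562, an established human cell line derived from chronic myeloid leukemia that carries the BCR-ABL1 fusion kinase. Cells were exposed for 24 h to 1 μM imatinib, an inhibitor of that kinase, or to its solvent DMSO as control, with 2 biological replicates of each. TIF-Seq2 ligates an adaptor to the decapped 5′ end of an RNA, primes reverse transcription from the poly(A) tail and sequences both ends of the same molecule, so that each read pair gives 1 start and 1 poly(A) site. The study used the comparison to see which transcript isoforms respond to the drug, and the same comparison is made here for the synthetases. All libraries come from this 1 line, and fewer cells of a kind cannot be told apart from less RNA per cell in such bulk samples.

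A synthetase joins an amino acid to its matching tRNA, the step on which the accuracy of the genetic code rests. Most amino acids have a pair of nuclear genes, one for the enzyme of the cytosol and one for an enzyme imported into mitochondria, where it charges the tRNAs used to translate the few proteins encoded by mitochondrial DNA. KARS1 and GARS1 are exceptions that make both enzymes from 1 gene, and cytosolic phenylalanyl-tRNA synthetase is built from the subunits FARSA and FARSB. In amino acid shortage the transcription factor ATF4 raises many of the cytosolic synthetases through a C/EBP-ATF response element.

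The libraries held 3695520 and 5135829 read pairs for DMSO replicates 1 and 2, and 4263670 and 2263121 for imatinib replicates 1 and 2. Of the 12 erythroid markers, 12 were tested and 10 rose after imatinib, led by ALAS2 with a log2 fold change of 3.90, while 3 of 10 markers of other blood cells had enough pairs to be tested and 1 of these, CD3D, was called, lower. Of 8 tested genes known to respond to BCR-ABL1 signalling, 7 fell, and the median log2 fold change was -2.57. The P-values below weigh the difference between groups against the variation between these replicates, estimated with information shared across genes.

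The cytosolic synthetases were the more abundant group. Levels are given as CPM, the read pairs of a gene scaled to library size with TMM factors. A pair stands for 1 molecule whatever its length, although long molecules may be recovered less well. The median over genes was 129 CPM for the cytosolic and 26.2 CPM for the mitochondrial group, against 33.6 CPM for the 8256 protein-coding genes with at least 100 pairs. The ranges met, since the cytosolic genes ran from 19.3 CPM (VARS1) to 424 CPM (KARS1) and the mitochondrial ones from 3.92 CPM (MARS2) to 69.9 CPM (WARS2).

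KARS1, the lysyl enzyme of both compartments, had 474 and 457 CPM in DMSO and 311 and 452 CPM in imatinib. TARS1, the threonyl enzyme, had 454 and 350 CPM in DMSO and 298 and 469 CPM in imatinib. RARS1, the arginyl enzyme, had 470 and 468 CPM in DMSO and 292 and 308 CPM in imatinib. The order of these 3 genes changed from library to library. YARS1 (tyrosyl) followed with 353 and 364 CPM in DMSO against 256 and 158 CPM in imatinib. NARS1 (asparaginyl) had 306 and 292 CPM in DMSO against 184 and 249 CPM in imatinib. For RARS1, YARS1 and NARS1 both imatinib libraries lay under both DMSO libraries, as they narrowly did for KARS1, whereas the groups overlapped for TARS1.

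Among the mitochondrial genes WARS2, for tryptophan, was the most abundant, with 71.6 and 62.5 CPM in DMSO and 71.5 and 74.1 CPM in imatinib. TARS2 had 53.1 and 92.6 CPM in DMSO and 73.9 and 37.2 CPM in imatinib. RARS2, CARS2 and IARS2 had means of 50.0, 50.0 and 43.5 CPM. RARS2 ran from 45.7 to 57.9 CPM over the libraries and CARS2 from 47.1 to 53.4 CPM, while IARS2 ranged from 27.9 to 62.8 CPM, with its highest and its lowest value both in imatinib. The ranges of adjacent genes in both orders overlapped over the libraries.

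**Figure D1:**
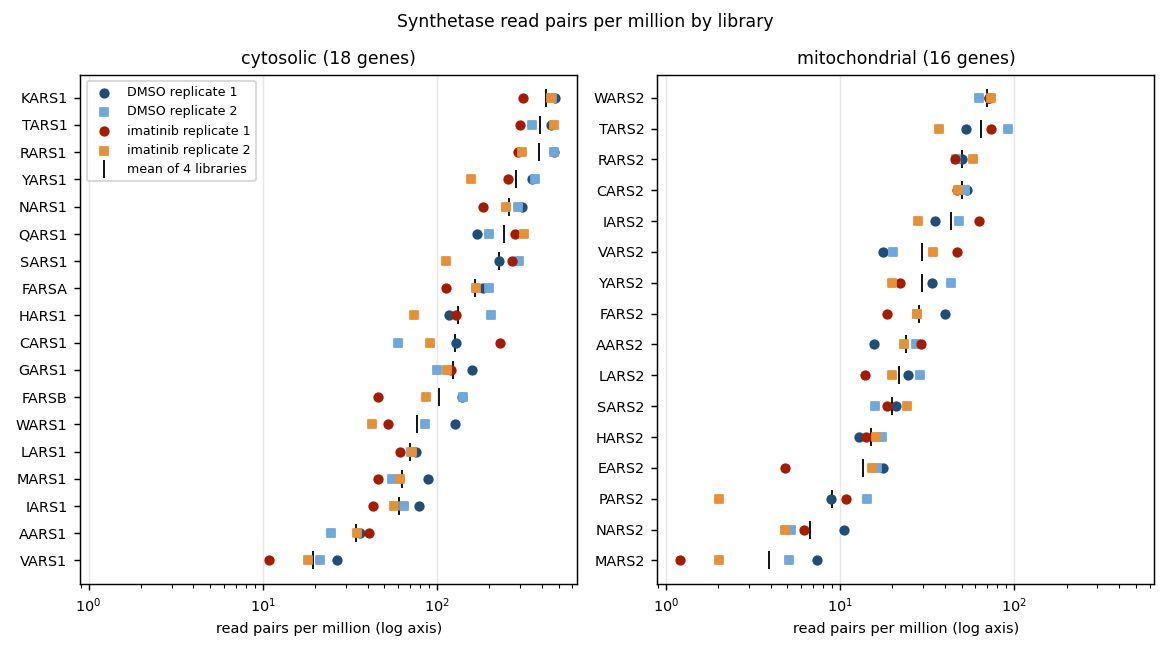
CPM (log axis) of the 18 cytosolic (left) and 16 mitochondrial (right) synthetase genes; each point is 1 library, blue for DMSO and red or orange for imatinib, and the tick is the mean of the 4 libraries. KARS1 is highest at a mean of 424 and MARS2 lowest at 3.92, and replicates lie far apart in CARS1 (229 and 91.5 in imatinib) as well as in low genes such as PARS2 (10.9 and 2.02).

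After imatinib, VARS2 rose and MARS2 and WARS1 fell, while the other 31 members did not pass the test. Each of the 34 had enough pairs to be tested among 12135 genes, with edgeR's quasi-likelihood test and Benjamini-Hochberg adjustment over all of them. A higher level was called for 1 of 34 members against 8.69% of all genes tested, and a lower level for 2 of 34 against 6.15%. With a log2 fold change beyond 1.5 as a further limit, 0 members were higher (6.46% of all genes) and 1, MARS2, was lower (3.26%). At an unadjusted p under 0.05, 8 members passed, of 3783 genes in all.

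VARS2, the mitochondrial valyl enzyme, had 17.6 and 20.1 CPM in DMSO and 46.9 and 34.4 CPM in imatinib. The groups did not overlap, and the log2 fold change was 1.11 ± 0.31 (SE, n = 2 per group, adjusted p = 0.043). All 500 of its pairs also fitted an annotated lncRNA on the same strand that encloses VARS2 and shares its 3′ end, so the pairs of both could not be separated by position alone. Of these pairs 53.4% began at the start cluster of VARS2 itself.

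MARS2, the mitochondrial methionyl enzyme and a gene of 1 exon, was counted 28 and 29 times in DMSO and 6 and 5 times in imatinib. These counts corresponded to 7.37 and 5.08 CPM against 1.21 and 2.02 CPM, with no overlap between groups and a log2 fold change of -2.0 ± 0.52 (adjusted p = 0.033). Its 68 pairs also fitted an enclosing lncRNA, but 92.6% began at the MARS2 start cluster. WARS1, the cytosolic tryptophanyl enzyme, known as an interferon-inducible gene, had 127 and 85.6 CPM in DMSO and 52.4 and 42.5 CPM in imatinib. Its groups did not overlap either, and its log2 fold change was -1.16 ± 0.31 (adjusted p = 0.036).

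These calls rested on small margins. Without DMSO replicate 1 none of the 3 was called (adjusted p = 0.280 for VARS2, 0.173 for MARS2 and 0.301 for WARS1). VARS2 and MARS2 were also lost without DMSO replicate 2 (adjusted p = 0.200 and 0.0664) and without imatinib replicate 1 (0.0665 and 0.0933). When 1 library was left out, the median log2 fold change of the members ran from -0.36 to -0.24, against -0.01 to 0.07 for all genes tested. DESeq2 called 0 members higher and 2 lower, WARS1 and FARSB.

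Below the called genes, the estimates of most cytosolic members leaned downward. Of the 18, 15 had a log2 fold change under 0 with a median of -0.45, and of the 16 mitochondrial genes 10 did with a median of -0.27, while 48.5% of all genes tested were under 0 with a median of 0.03. Both imatinib libraries lay under both DMSO libraries in 15 of the 34 genes, 9 cytosolic and 6 mitochondrial, against 29.1% of all genes tested, and above them in 2, QARS1 and VARS2, against 31.0%. Summed over the group, the cytosolic genes took 3614 and 3452 CPM in DMSO and 2782 and 2887 CPM in imatinib. The sums of the mitochondrial genes were 473 and 524 CPM in DMSO and 488 and 434 CPM in imatinib, and overlapped.

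FARSB, the beta subunit of the phenylalanyl enzyme, came closest to the threshold, with 140 and 140 CPM in DMSO, 46.1 and 87.0 CPM in imatinib and a log2 fold change of -1.09 ± 0.33 (adjusted p = 0.059). Its partner subunit FARSA, with 185 and 200 CPM in DMSO and 112 and 168 CPM in imatinib, had -0.46 ± 0.28 (adjusted p = 0.302). QARS1, the glutaminyl enzyme, had 169 and 198 CPM in DMSO, 281 and 318 CPM in imatinib and a log2 fold change of 0.70 ± 0.25 (adjusted p = 0.093). FARSA and FARSB were both under their DMSO values in each imatinib library, and QARS1 was above them. CARS1, the cysteinyl enzyme, had the largest positive estimate of the cytosolic group at 0.78 ± 0.47 (adjusted p = 0.290), and its 128, 59.5, 229 and 91.5 CPM in DMSO 1, DMSO 2, imatinib 1 and imatinib 2 overlapped between groups.

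**Figure D2:**
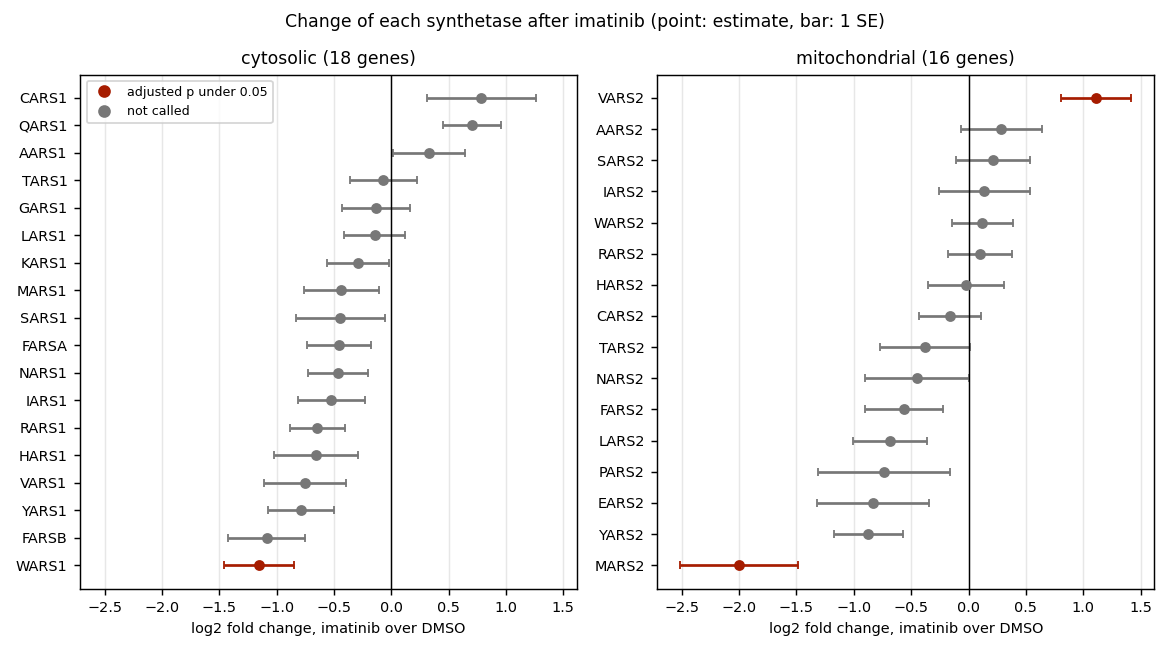
Log2 fold change of each synthetase, imatinib over DMSO, from the fit over 12135 genes, cytosolic left and mitochondrial right; points are estimates, bars 1 SE, and red marks an adjusted p under 0.05. WARS1 (-1.16), MARS2 (-2.0) and VARS2 (1.11) are called, and 15 of 18 cytosolic estimates lie under 0.

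The balance of both compartments differed widely between amino acids. For the 13 amino acids with a gene of each name, the ratio of cytosolic to mitochondrial pairs within a library, which does not depend on library scaling, had a median of 8.53 and 3.78 in DMSO and 4.86 and 4.58 in imatinib. Over the libraries pooled it was highest for asparagine, where NARS1 had 29.1 and 55.6 pairs for each pair of NARS2 in DMSO and 29.5 and 51.2 in imatinib. For valine the ratio of VARS1 to VARS2 was 1.52 and 1.06 in DMSO and 0.232 and 0.529 in imatinib, so that the mitochondrial gene had the more pairs in the treated cells. The ratio of WARS1 to WARS2 likewise went from 1.78 and 1.37 in DMSO to 0.732 and 0.574 in imatinib. For methionine it went the other way, from 12.1 and 10.9 to 38.0 and 30.2. The ratios for valine, tryptophan and methionine hold the called genes VARS2, WARS1 and MARS2, so they reuse the same counts. The groups also stood apart for leucine (3.12 and 2.45 in DMSO, 4.39 and 3.63 in imatinib). For arginine the ratio was 9.41 and 10.1 in DMSO and 6.38 and 5.33 in imatinib. For the other amino acids the groups overlapped. With 2 libraries on each side these ratios are a description and were not tested. Of the VARS1 pairs, 289 began more than 200 bp downstream of the annotated start and 34 near it. All pairs of VARS2 and MARS2 also fitted an enclosing lncRNA.

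**Figure D3:**
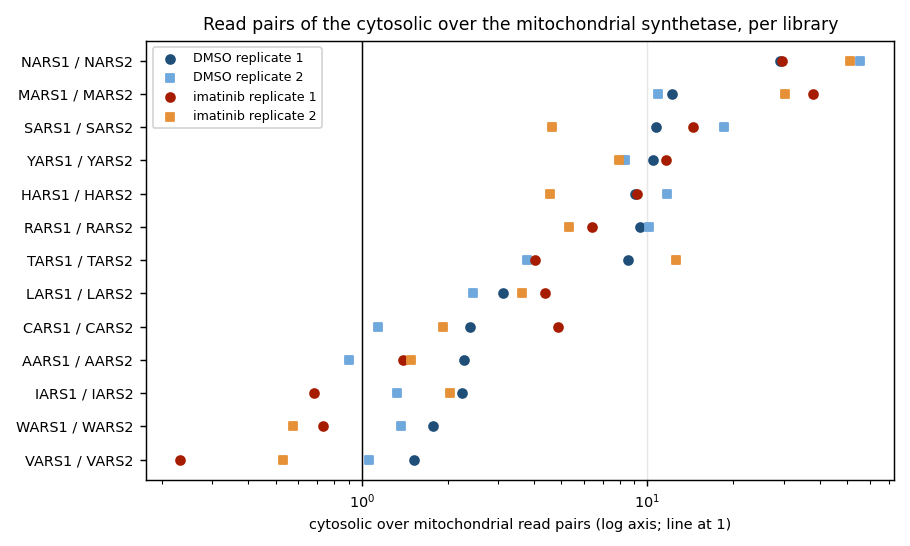
Ratio of cytosolic to mitochondrial read pairs (log axis, line at 1) for 13 amino acids; each point is 1 library, blue for DMSO and red or orange for imatinib. For VARS1 over VARS2 and WARS1 over WARS2 both imatinib points lie under 1 and both DMSO points above it. For MARS1 over MARS2 and LARS1 over LARS2 both imatinib points lie above the DMSO points, and for RARS1 over RARS2 below them.

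The sequence around the starts of the 3 called genes is shown for the motifs it holds. The windows of 70 bases were read from hg38 on the gene's strand, and the start is base 61. Capitals mark matches, on either strand, to the letters CACGTG (an E-box), CCGGAAGT (the core bound by ETS factors), CCAAT (bound by NF-Y) and the TATA box letters TATAAA, and to the palindromic core bound by NRF1, a regulator of nuclear genes for mitochondrial proteins. The windows are chr6:30914184-30914253 (plus strand) for VARS2, chr2:197705309-197705378 (plus strand) for MARS2, and chr14:100375466-100375535 and chr14:100376302-100376371 (minus strand) for the near and the far start of WARS1.
VARS2: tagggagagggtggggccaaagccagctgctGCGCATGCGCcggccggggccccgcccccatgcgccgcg
MARS2: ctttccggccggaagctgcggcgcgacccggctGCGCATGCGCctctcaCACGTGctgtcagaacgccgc
WARS1 near: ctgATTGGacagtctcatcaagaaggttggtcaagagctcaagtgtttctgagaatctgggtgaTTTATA
WARS1 far: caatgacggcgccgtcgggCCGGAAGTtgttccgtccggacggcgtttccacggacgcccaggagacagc

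The NRF1 core stood 29 bases before the start of VARS2 and 27 before that of MARS2, the mitochondrial gene that rose and the mitochondrial gene that fell. Around the most used canonical start of each of the 34 members, from 250 bases before it to 50 from it onward, no other member held it. Among RefSeq promoters of the same length (GRCh38.p14), 1 of 29 entries of members held it, that of MARS2, against 1.24% of all 35116. VARS2 had no entry there. Motif matches are letters in a window and do not show binding.

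WARS1 used separate starts. Of its 1337 pairs, 572 began around position 100375475 and 446 around 100376311, 836 bp further upstream, both at annotated starts. In DMSO the near start took 49.7% and 40.9% of pairs and the far start 31.1% and 39.7%. In imatinib the near start took 32.7% and 44.8% and the far start 26.2% and 32.4%. Another annotated start, 132 bp upstream of the near one, took 1.66% and 1.84% in DMSO, 15.0% in imatinib replicate 1 and 4.76% in imatinib replicate 2. The shares of both main starts overlapped between groups.

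The letters TGATGNAA, where N is any base, which match the C/EBP-ATF response element that ATF4 uses, occurred in 10 of the 34 windows of members, 9 of them cytosolic and 1 mitochondrial. Among RefSeq promoters 29 of the 34 members had an entry, 8 of which held the letters on either strand, against 3.62% of all promoters. The 8 stretches follow because they show how alike the matches are, with the match in capitals and 8 bases on each side, on the gene's strand, from RefSeq (GRCh38.p14).
AARS1, chr16:70289678-70289701: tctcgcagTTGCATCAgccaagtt
CARS1, chr11:3057410-3057433: ggcggcggTTGCATCAgattctag
GARS1, chr7:30594837-30594860: cgcggcgaTTTCATCAtgctccga
IARS1, chr9:92293695-92293718: tcagcgcgTTGCATCAcctccgtg
MARS1, chr12:57488056-57488079: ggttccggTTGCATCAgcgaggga
NARS1, chr18:57621807-57621830: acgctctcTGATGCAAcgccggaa
TARS1, chr5:33440959-33440982: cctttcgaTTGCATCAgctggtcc
YARS2, chr12:32756079-32756102: cacactgcTGATGGAAaaattaag

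In 6 of the 8, all cytosolic, the match read TGATGCAA or its reverse complement. WARS1 and YARS1 held the letters in the window around their own start, though WARS1 has no match in its RefSeq promoter and YARS1 has no entry there. CCAAT occurred in 17 of the 34 windows of members and in 15 of their 29 RefSeq entries, against 34.6% of RefSeq promoters. CCGGAAGT occurred in 6 of 34 and 6 of 29, against 4.14%, but HARS1 and HARS2 share their matches, which lie between their starts. CACGTG occurred in 4 of 34 and 3 of 29, against 7.26%, and TATAAA in WARS1 alone, against 11.5%. Around the near start of WARS1 that match lay on the opposite strand and began 4 bases after the start, not upstream of it.

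Genes that work beside the synthetases, and other targets of ATF4, are given for comparison. Of 17 partners tested, EPRS1, the fused glutamyl-prolyl synthetase of the cytosol, rose from 93.7 and 67.6 CPM in DMSO to 246 and 268 CPM in imatinib (log2 fold change 1.67 ± 0.28, adjusted p = 0.00683). TRNT1, which adds the CCA end to tRNAs, fell from 33.1 and 32.0 to 15.5 and 15.0 CPM (-1.09 ± 0.30, adjusted p = 0.0393). The median log2 fold change of the partners was -0.27. Of 20 ATF4 targets 18 were tested and 0 were called by edgeR's quasi-likelihood test. At an unadjusted p under 0.05 there were 2, both lower, SLC7A5 (log2 fold change -1.15) and TRIB3 (-1.05). The median of the 18 was 0.12, and 7 of them lay under 0.

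Transcription of the synthetases began mostly at the annotated position. The most used single base position lay within 200 bp of the start of the canonical transcript in 33 of 34 members (97.1%), against 83.0% of the 8256 protein-coding genes with at least 100 pairs. Beside it, 18.5% of all pairs of members were internal, which here means that they began more than 200 bp downstream of the canonical start, with 17.1% for the cytosolic and 27.5% for the mitochondrial group. By library the internal share was 17.2% and 16.7% in DMSO and 18.1% and 16.4% in imatinib for cytosolic genes, and 24.9% and 25.9% in DMSO and 32.3% and 25.1% in imatinib for mitochondrial ones. IARS2 alone supplied 776 of the 2275 internal pairs of the mitochondrial group. The median over genes was 17.0% for the cytosolic and 20.4% for the mitochondrial group. Over the 33 members with at least 100 pairs it was 18.0%, against 18.2% for the 8256 genes.

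IARS2, the mitochondrial isoleucyl enzyme, was the exception. Of its 790 pairs, 98.2% were internal (95% Wilson interval 97.0 to 98.9%), with 98.5% and 98.2% in DMSO and 98.4% and 97.1% in imatinib. They lay in 99 separate clusters of starts at most 10 bp apart, the largest of which, in exon 23, took 16.2% of pairs. VARS1, the cytosolic valyl enzyme, was alike, with 89.5% internal pairs of 323 and 27 pairs each in a cluster in exon 19 and at the canonical start, where the most used single base had 5 and 17 pairs. Intervals of shares cover counting error only. The windows of 30 bases around these starts are chr1:220147728-220147757 and chr1:220145538-220145567 (plus strand) for IARS2 and chr6:31781878-31781907 (minus strand) for VARS1, shown because of what stands at their centre. Capitals mark the base before the start and the start.
IARS2, exon 23: taggtaatgagtggATgagtaaatggtgga
IARS2, exon 22: ctctcagttgaatgAAttaatgatggcttc
VARS1, exon 19: gcccgggagaaggcAGccaaggagttcgga

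None of the 3 has a pyrimidine before a purine, the pair of bases at which capped human RNAs most often begin. Over all members, 57.7% of pairs within 200 bp of the canonical start began at such a pyrimidine-purine step, and 19.9% of internal pairs did. The share at canonical starts was 59.5% and 59.4% in DMSO and 54.3% and 56.1% in imatinib, and at internal starts 20.5% and 20.7% in DMSO and 19.1% and 18.5% in imatinib, so that starts of both classes stood apart in all 4 libraries. IARS2 and VARS1 had 17.1% and 16.6% at their internal starts, and 57.1% and 64.7% of 14 and 34 pairs at their canonical ones. In addition, 88.5% of internal starts of members lay in an exon of the canonical transcript. How the internal ends arose was not tested.

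Internal shares over 20% were found in 15 of the 33 members with at least 100 pairs, against 47.4% of the 8256 genes. After IARS2 and VARS1 came NARS2 with 49.6% of 113 pairs, VARS2 with 42.6% of 500, IARS1 with 38.3% of 1020, AARS1 with 37.7% of 567, AARS2 with 34.1% of 419 and LARS1 with 26.4% of 1175. In these 6 genes the internal starts were scattered, and the largest cluster of them, in NARS2, held 3.54% of the pairs of its gene. In VARS2 the internal share was 49.3% and 51.3% in DMSO and 39.1% and 35.3% in imatinib, and in NARS2 60.0% and 53.3% against 38.7% and 33.3%. Neither change passed the test across genes (adjusted p = 0.425 for VARS2 and 0.498 for NARS2, edgeR). Across the 33 members the internal share and the length of the spliced canonical transcript had a Spearman correlation of 0.36, and the internal share and the CPM one of -0.37, as a description of genes that share the same libraries.

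Internal starts of QARS1 and YARS2 were of another kind, and these genes were picked out after their values had been seen. QARS1 had 989 internal pairs of 3951, 91.6% of them within 200 bp of the start of another annotated transcript. Its main start at 49104757 took 2899 pairs, and a start 246 bp downstream at 49104511, inside intron 1 of the canonical transcript and at the annotated start of another, took 670. The stretch chr3:49104491-49104777 on the minus strand holds both, with 20 bases on each side. Capitals mark the base before each start and the start.
QARS1: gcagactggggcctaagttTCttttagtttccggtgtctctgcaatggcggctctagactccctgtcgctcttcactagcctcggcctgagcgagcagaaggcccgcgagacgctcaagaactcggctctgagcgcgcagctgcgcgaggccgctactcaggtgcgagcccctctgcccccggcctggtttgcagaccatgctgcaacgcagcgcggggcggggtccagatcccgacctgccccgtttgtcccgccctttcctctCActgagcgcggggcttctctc

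The main start of QARS1 opens with a C followed by T bases, and the downstream start with an A after a C. A pyrimidine-purine step was at 39.03% of internal starts of QARS1 but at 17.1% of its canonical ones. The downstream start took 21.3% and 23.2% of the pairs of the gene in DMSO and 13.1% and 11.3% in imatinib. The groups did not overlap, nor did the Wilson intervals, which cover counting error only and not the spread between replicates. The CPM of the gene lay above the DMSO values in both imatinib libraries. The pairs at that start numbered 137 and 262 in DMSO and 182 and 89 in imatinib. In the test of the whole internal share across 9693 genes, QARS1 had a log2 odds ratio of -0.73 ± 0.25 (adjusted p = 0.087, edgeR), which did not pass.

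In YARS2, the mitochondrial tyrosyl enzyme, 54 of 535 pairs began around position 32755250, 647 bp downstream of the main start in exon 1. These pairs made up 18.0% and 10.1% in DMSO and 4.55% and 2.04% in imatinib, with counts of 23, 25, 5 and 1. The groups did not overlap, and 53.4% of the internal starts of YARS2 had a pyrimidine-purine step. The internal share of the gene as a whole had a log2 odds ratio of -1.0 ± 0.47 (adjusted p = 0.310).

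HARS1, the cytosolic histidyl enzyme, was the 1 member of 33 tested whose internal share changed, against 3.27% of all genes tested. Its internal share was 13.3% and 9.8% in DMSO and 20.0% and 18.0% in imatinib, from 59, 115, 128 and 33 pairs. The groups did not overlap, with a log2 odds ratio of 0.92 ± 0.29 (adjusted p = 0.0493, edgeR). The call was lost without DMSO replicate 1 (adjusted p = 0.113), DMSO replicate 2 (0.725) or imatinib replicate 1 (0.419), with a limit of 500 bp in place of 200 bp (0.0622) and with pairs filtered on distance and A-rich ends (0.191). A pyrimidine-purine step was at 21.5% of these starts, 90.4% of which lay in canonical exons. The largest internal cluster, in exon 5, held 1 and 1 pairs in DMSO and 30 and 6 in imatinib.

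HARS1 and HARS2, its mitochondrial counterpart, stand head to head on chromosome 5. The most used start of HARS1, at 140691341 on the minus strand, and that of HARS2, at 140691468 on the plus strand, were 127 bp apart. The interval chr5:140691331-140691478, shown on the strand of HARS2 since both genes are read outward from it, has the start bases and the bases before them in capitals, HARS1 left and HARS2 right.
HARS1-HARS2: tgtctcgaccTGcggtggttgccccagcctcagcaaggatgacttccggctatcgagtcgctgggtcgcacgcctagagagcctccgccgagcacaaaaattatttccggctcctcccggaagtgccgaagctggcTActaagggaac

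From this interval HARS1 had 117 and 205 CPM in DMSO and 129 and 74.1 CPM in imatinib, and HARS2 had 12.9 and 17.51 CPM in DMSO and 14.1 and 16.2 CPM in imatinib. Neither passed the test (log2 fold change -0.66 ± 0.37, adjusted p = 0.253, and -0.02 ± 0.33, adjusted p = 0.972). The pairs of HARS1 outnumbered those of HARS2 9.06 and 11.7 times in DMSO and 9.16 and 4.58 times in imatinib. HARS2 had another start 146 bp downstream, which took 22.4% of its pairs against 42.1% at the main one.

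**Figure D4:**
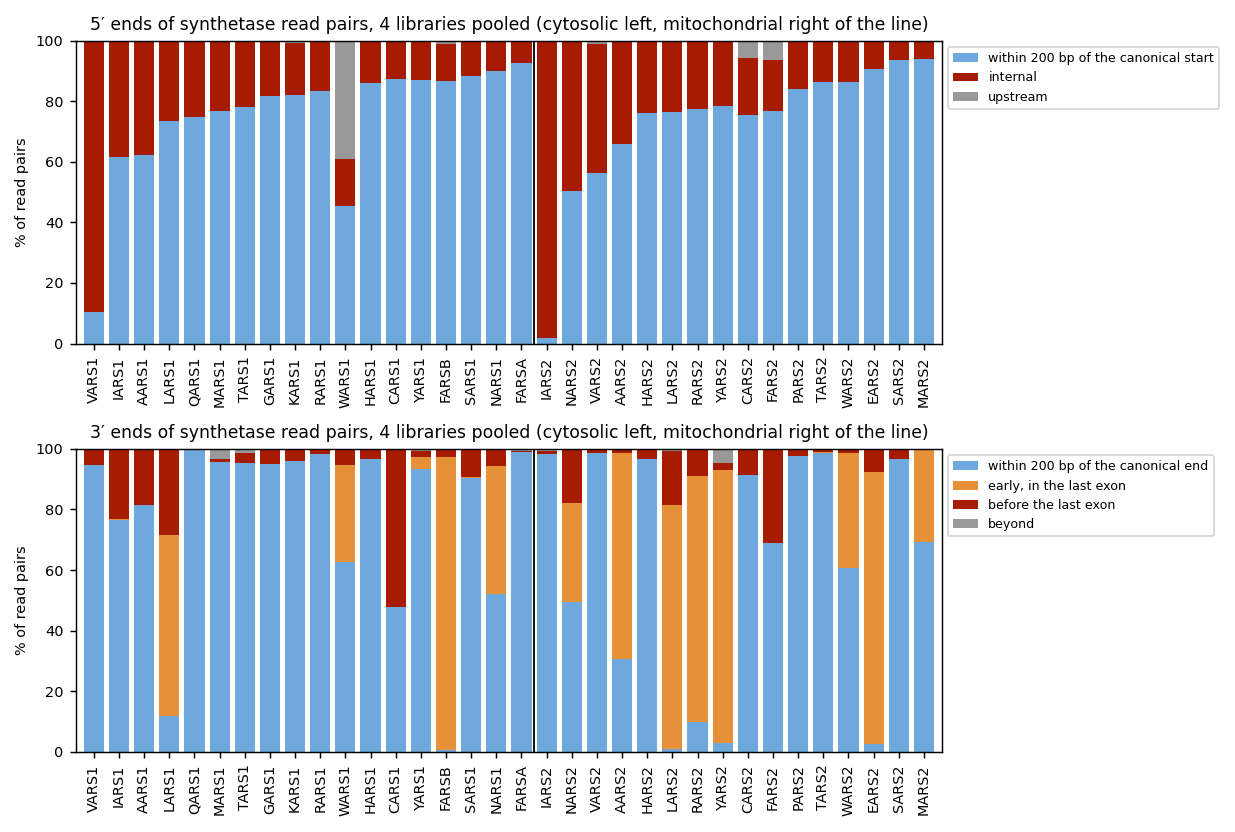
Share of read pairs by the place of the 5′ end (top) and the 3′ end (bottom) relative to the canonical transcript, for 34 synthetases with 4 libraries pooled, cytosolic left of the line and mitochondrial right. Internal starts make up 98.2% in IARS2 and 89.5% in VARS1, ends before the last exon 52.4% in CARS1, and early ends within the last exon 96.9% in FARSB.

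Most synthetases ended at the annotated 3′ end. The most used single base position lay within 200 bp of the canonical end in 28 of 34 members (82.4%), against 52.0% of the 8256 genes. An AATAAA stood in the 40 bases before it in 24 members (70.6%, against 64.1% of the 8256 genes), and ATTAAA in 5 more (14.7%, against 16.0%). None of the 34 most used ends had 7 or more A in the 10 bases that follow it in the genome, where an oligo-dT primer can bind inside an RNA, as 8.98% of the 8256 genes did.

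When neighbouring positions were joined into clusters, CARS1 had its leading end in exon 20 with an ATTAAA before it, by 1055 pairs against 1044, whereas its most used single base, with 629 pairs, was at the canonical end. The 6 exceptions by single base all ended early within the last exon. Relative to the canonical 3′ end, FARSB ended at -4846 bp (76.8% of 1779 pairs) and EARS2 at -2284 bp (51.8% of 222). LARS1 ended at -877 bp (51.2% of 1175) and LARS2 at -571 bp (77.1% of 376), while YARS2 and RARS2 ended at -482 and -447 bp, with 62.2% and 81.1% of their pairs. Other genes divided their pairs between ends of the same exon, such as NARS1 with 2255 pairs at the canonical end and 1260 at -219 bp, and WARS2 with 709 pairs at the canonical end and 406 at -1465 bp. The end of NARS1 at -219 bp was A-rich in 66.7% of its pairs.

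Ends before the last exon, which would leave out part of the coding sequence, took over 10% of pairs in 7 members, against 36.8% of the 8256 genes. They were CARS1 (52.4%), FARS2 (31.1%), LARS1 (28.4%), IARS1 (23.2%), AARS1 (18.5%), LARS2 (17.8%) and NARS2 (17.7%). Of these pairs, 101 of 105 were A-rich in AARS1, 20 of 20 in NARS2 and 184 of 237 in IARS1. With pairs filtered on distance and A-rich ends, the shares were 0.873% in AARS1, 0% in NARS2 and 6.11% in IARS1, under the limit of 10%, against 43.97% in CARS1, 20.7% in FARS2, 21.6% in LARS1 and 12.4% in LARS2. The most used of them, for the first 4 genes, are printed for what stands beside the cleavage site, in 30 bases of hg38 each. In the first set, which ends at the site, capitals mark the AATAAA or ATTAAA signal, and the canonical end of CARS1 and an end of SARS1, the seryl enzyme, chosen after its values had been seen, are added.
CARS1, canonical end in exon 23, chr11:3000930-3000959: gacattgatAATAAAtttttctcaacagtg
LARS1, intron 19, chr5:146143245-146143274: ggaaaaattAATAAAtagccccttactgtc
FARS2, intron 1, chr6:5262141-5262170: acaactttgcATTAAAatccatctttctcc
SARS1, intron 1, chr1:109214890-109214919: aagccgAATAAAaccatagaaccatctgcc
In the second set, which runs from 20 bases up to the site to 10 bases past it, capitals mark the 10 bases that follow the site.
CARS1, exon 20, chr11:3005376-3005405: cagaaacaccttattaaaagAGAGAGAAGA
IARS1, intron 20, chr9:92255597-92255626: aaatagtccccttcttttccAGAAAAATTA
LARS1, intron 1, chr5:146181870-146181899: agttgattcctacttacagcAAAAAAAAAA

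The ends of the first set have a signal 20 to 24 bases before them and few A after them, whereas that of LARS1 in intron 1 is followed by 10 A and that of IARS1 by 7 A among 10 bases. Of all 3944 pairs of members that ended before the last exon, 37.8% had 7 or more A in the 10 bases after the end, and this share was 38.8% for the mitochondrial and 37.6% for the cytosolic genes. Such ends can arise by priming within the RNA, and no value here separates those from true poly(A) sites.

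CARS1 divided its 2191 pairs about evenly between exon 20, with 1055 pairs, and the canonical end in exon 23, with 1044. The exon 20 end took 45.2% and 25.0% of pairs in DMSO and 55.5% and 52.2% in imatinib, so DMSO replicate 2 stood below the other 3 libraries. It had an ATTAAA 8 bases before it and was followed by 6 A among 10 bases, and 31.1% of its pairs were A-rich by the limit of 7. In SARS1, 178 of 4161 pairs ended in intron 1, making up 5.70% and 5.88% in DMSO and 1.34% and 4.33% in imatinib. Both imatinib values were lower, but the Wilson interval of imatinib replicate 2 (2.5 to 7.4%) took in both DMSO values.

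The share of pairs that ended before the last exon differed between start classes in some genes. In FARS2, 18.0% of the 362 pairs from the canonical start ended before the last exon (Wilson interval 14.3 to 22.2%), against 72.5% of 80 pairs from internal starts (61.9 to 81.1%). In AARS1 it was the reverse, with 26.6% of 353 pairs from the canonical start (22.3 to 31.5%) and 5.14% of 214 from internal starts (2.9 to 9.0%), but 101 of these 105 early ends were A-rich. A-rich ends made up 62 of 147 such pairs in FARS2 and 103 of 334 in LARS1. LARS1 resembled AARS1, with 35.0% of 865 pairs from the canonical start against 10.0% of 310 from internal starts. An internal start lies nearer the 3′ end and can only precede an end downstream of it, which limits the comparison. In AARS1 the largest early ends, 76 and 17 pairs in intron 1, lay upstream of its largest internal clusters in exons 14 and 13. In LARS1, ends in intron 1 and exon 5 (67 and 56 pairs) lay upstream of those in exons 28 and 26. Such starts could not reach these ends, so neither contrast shows a link. In FARS2, 80.0% of 30 pairs from starts upstream of the canonical one also ended before the last exon.

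No member passed the test for a changed share of early ends after imatinib. The share that ended more than 200 bp before the canonical end was tested in 26 members among 6919 genes, and edgeR called 0 genes (0%) and 0 members. At an unadjusted p under 0.05 there were 571 genes and 0 members, and the smallest adjusted p of a member was 0.660. Without imatinib replicate 2, 1 member was called. For the cytosolic group the early share was 16.7% and 15.5% in DMSO and 14.6% and 13.9% in imatinib, and for the mitochondrial group 40.2% and 36.5% against 28.7% and 38.5%. The mean over libraries of the mitochondrial share, 36.0%, was 22.2% with a limit of 500 bp.

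**Figure D5:**
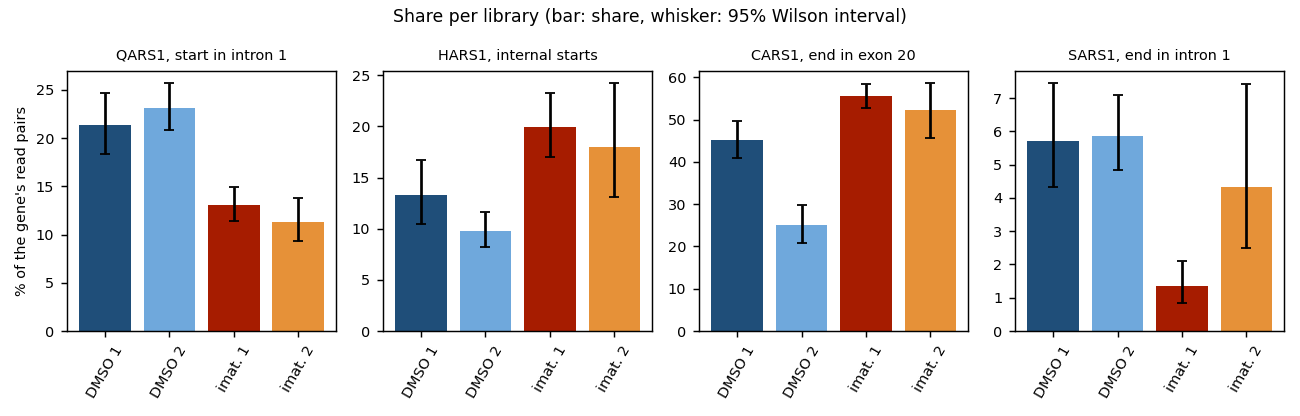
Share of a gene's read pairs per library for the QARS1 start in intron 1, the internal starts of HARS1, the CARS1 end in exon 20 and the SARS1 end in intron 1; bars are shares in percent, whiskers 95% Wilson intervals, blue for DMSO and red or orange for imatinib. The QARS1 start goes from 21.3% and 23.2% in DMSO to 13.1% and 11.3% in imatinib, and the CARS1 end is lowest in DMSO replicate 2 at 25.0%.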

How the data were processed

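For each TIF-Seq2 library the authors deposited counts of read pairs per observed couple of start and end coordinates. The authors trimmed reads with cutadapt (1.16), aligned both ends to hg38 with STAR (2.5.3a), kept uniquely mapped pairs on the same chromosome and collapsed PCR duplicates by molecular identifier. The deposited counts carry no normalization and no filter on internal priming. The PacBio transcript models carry no counts and were not used, and the 3′T-fill samples were not analysed here. Library depth was 2263121 to 5135829 pairs.

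Pairs were assigned to each gene of Gencode v44 with 1000 bp of slack, and a pair that fitted several genes counted for each. Genes passing edgeR's filter were fitted with edgeR 4.0.16 (TMM, robust quasi-likelihood test, R 4.3.3), with Benjamini-Hochberg adjustment over all genes tested and calls at 0.05, and DESeq2 1.42.0 as alternative. Shares were tested with 2 columns per library (the class and the rest), a library term and a class by treatment coefficient, in genes with at least 10 pairs in each class over the libraries. Positions at most 10 bp apart were joined into clusters. The scripts were tested on simulated data.

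All members were accounted for. Values per library were given for called members, the 5 of highest mean CPM in each group, HARS1, HARS2 and up to 8 members each with over 20% internal starts or over 10% of ends before the last exon, among those with at least 100 pairs. In other lists up to 3 called genes were named. Members, lists and motifs were chosen with earlier results of these data known. No column of other samples was used. The sequence at 1 early end is not reported here.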

Additional observations from a re-analysis of the deposited data

How the results depend on the processing

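Alternatives to the gene test changed the calls more than the directions. Members called higher, 1 as reported, numbered 0 with DESeq2 and 0 with only pairs that fit 1 gene (VARS2, MARS2 and SARS2 then have no pairs), and changed when 1 library was left out. Members called lower, 2 as reported, numbered 4 without the filter on low counts, 1 with only pairs that fit 1 gene and 0 to 8 when 1 library was left out. The paper speaks of corresponding DMSO controls, but the labels do not say which libraries were handled together. The deviations of same-numbered libraries had a correlation of -0.24, which cannot decide whether they form pairs. With the replicate block, 0 members were called higher and 0 lower. With crossed numbers, an alternative added after seeing the data, 3 were called higher and 9 lower. That setting called 1933 genes higher and 1790 lower among all 12135 tested, against 1054 and 746 as reported. The number of members with a changed internal share, 1 as reported, was 0 with a limit of 500 bp, 0 with filtered pairs (300 bp to 2 Mb apart, fewer than 7 A after the end), 0 with the replicate block and 0 to 1 when 1 library was left out. For early ends it was 0 to 1.

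The mean internal share of cytosolic genes, 17.1%, moved to 18.0% with 100 bp, 15.8% with 500 bp and 16.3% with filtered pairs. Their early share, 15.2%, moved to 18.1%, 12.3% and 11.6%, and that of mitochondrial genes from 36.0% to 22.2% with 500 bp. Log2 fold changes near 0 reversed in some settings. HARS2 became 0.0081 with the replicate block, and ranged from -0.24 to 0.21 (0.09 without imatinib replicate 1) when 1 library was left out. The same range was -0.57 to 0.55 for IARS2 (-0.11 without DMSO replicate 1), -0.11 to 0.28 for RARS2, -0.47 to 0.24 for TARS1 (0.11 without DMSO replicate 1) and -0.96 to 0.058 for TARS2. The log2 odds ratio of internal starts in QARS1 became 0.18 with 500 bp, a limit that leaves out the start at 246 bp. The other causes were not tested. Depth limits MARS2, NARS2 and PARS2 most.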
